A study of Mus musculus with 2 samples.

Results

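The let-7 genes described here are 6 of 2202 annotated miRNA genes: Mirlet7i, Mirlet7g, Mirlet7d, Mirlet7b, Mirlet7e and Mir98. Each has a mature form encoded at 1 locus of the mouse genome. They were taken by gene name, with earlier results of these data known. Mirlet7j and Mirlet7k, which carry few reads or none, are not among them, and copies of their mature forms were not searched. The other 8 let-7 genes (Mirlet7a-1, Mirlet7a-2, Mirlet7c-1, Mirlet7c-2, Mirlet7f-1, Mirlet7f-2, Mirlet7j and Mirlet7k) are set beside them. MicroRNAs were sequenced from the gastrocnemius, a calf muscle, of B6CASTF1/J mice, the first-generation hybrid of C57BL/6 and CAST. Both samples come from females 10 days old, with RNA below 30 bases selected from total RNA, and no treatment or altered allele is given. Per the labels these are biological replicates 1 and 2, with different animal numbers but a common donor entry, so that their standing as separate animals rests on the labels. They form 1 group, and the data therefore give levels and the spread between 2 libraries, with no contrast between conditions.

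The let-7 family silences target messenger RNAs through a shared seed, bases 2 to 8 of the mature strand, and it accumulates as tissues differentiate. Among its known targets in mouse are the growth regulator Hmga2 and the receptor gene Igf1r. The RNA-binding proteins Lin28a and Lin28b hold let-7 low in early tissues: they bind the loop of the let-7 precursor, where their zinc knuckles recognise the letters GGAG, and block its maturation. Several genes of the family encode the same mature strand, whereas each of the 6 genes here yields a strand of its own.

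The 5p strands are shown because they carry the let-7 seed and set how far reads of that arm can be told apart. All are 22 bases long, from RefSeq on build GRCm38.p6, with the seed in capitals, and let-7a, let-7c and let-7f are the multi-locus forms they are compared with.
let-7i-5p: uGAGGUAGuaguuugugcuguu
let-7g-5p: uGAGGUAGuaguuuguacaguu
let-7d-5p: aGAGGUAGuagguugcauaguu
let-7b-5p: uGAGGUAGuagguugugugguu
let-7e-5p: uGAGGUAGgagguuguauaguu
miR-98-5p: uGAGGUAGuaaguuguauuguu
let-7a-5p: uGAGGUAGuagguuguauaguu
let-7c-5p: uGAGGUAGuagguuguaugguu
let-7f-5p: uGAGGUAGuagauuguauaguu

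All 6 genes carry the same seed, so on the 5p side they differ outside bases 2 to 8. Of 1679 mature mouse miRNAs in the RefSeq table, 11 carry this seed. Besides the strands above they are let-7k and miR-1961, and the genes Mirlet7k and Mir1961 had 0 reads in either library. With positions counted from 1 at the 5′ end of let-7a-5p, let-7e differs by U9G alone. The let-7g strand differs by G12U and U18C, and let-7i by G12U, A17G, U18C and A19U. In let-7d the changes are U1A and U16C, in let-7b they are A17G and A19G, and in miR-98 they are G11A and A19U. Over the 15 pairs among the 6 genes, the 5p strands differed at 2 to 6 positions, with let-7g and let-7i the closest at 2. Toward the multi-locus strands the distance was shorter for let-7b, at 1 position from let-7c, and for let-7e, at 1 position from let-7a.

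The 3p strands were less alike, differing at 4 to 20 positions between genes. Only let-7b-3p and miR-98-3p, among the 6, have a common 3p seed (uauacaa), which 5 mature strands of let-7 and miR-98 genes carry in all. A gene's count sums both strands, so none of the levels below can be split by arm.

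How much of each precursor is distinct bears on these counts, because reads that could be aligned to more than 1 place were set aside and reached no gene. The 6 precursors were the same in RefSeq and in GENCODE M21. No window of 22 bases in any of them recurred in an annotated precursor at another place, and neither mature strand of any gene recurred whole in an annotated transcript at another place, hosts and other overlapping genes left out. With windows of 18 bases, 3 of the 6 genes had a match. All these searches counted exact matches only, and genome sequence outside annotated transcripts was not searched. Mirlet7i and Mirlet7g share a stretch of 19 bases at the 5p strand, and Mirlet7b shares 19 bases with Mirlet7c-2 there. The first 17 bases were needed to set let-7i, let-7g, let-7b or let-7e apart from every other annotated precursor, against 10 for let-7d and 11 for miR-98. A read that starts at the 5′ end of the strand and stops short of these lengths matches more than 1 precursor.

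The stretches between the 5p and 3p strands of 5 of the genes are shown because Lin28 proteins bind there. Capitals mark GGAG where it occurs; in Mirlet7b, which lacks it, they mark GAAG, a motif searched after the sequences were seen.
Mirlet7i loop: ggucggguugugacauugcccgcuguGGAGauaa
Mirlet7g loop: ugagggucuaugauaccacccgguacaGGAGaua
Mirlet7d loop: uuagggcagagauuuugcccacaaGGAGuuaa
Mirlet7e loop: gaggaagacacccgaGGAGauca
Mirlet7b loop: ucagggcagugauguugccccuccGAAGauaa

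Of these 5 loops, 4 held GGAG, ending 4 bases before the 3p strand in Mirlet7i, Mirlet7d and Mirlet7e and 3 bases before it in Mirlet7g. In Mirlet7b, GAAG stood 4 bases before the 3p strand. The search ran on the strand of the RNA only, and in Mirlet7e a GAAG also occurs 16 bases from the 3p strand. Over 644 mouse hairpins with both arms annotated, 8.07% held GGAG between the arms and 6.68% held GAAG. In the 124 whose loop is 20 to 40 bases long the shares were 16.1% and 12.1%. A match describes letters and is no measure of binding.

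The genes lie on 6 chromosomes (coordinates in mm10, from GENCODE M21). Mirlet7i (ENSMUSG00000065406.3) is at chr10:122985640-122985724 on the minus strand, overlapping an exon in 1 of 2 transcripts of the transcribed pseudogene D630033A02Rik. Mirlet7d (ENSMUSG00000065453.1) is at chr13:48536012-48536114 on the minus strand, overlapping an exon of the lincRNA 6720427I07Rik. Mirlet7b (ENSMUSG00000065564.1) is at chr15:85707319-85707403 on the plus strand, overlapping an exon in 1 of 2 transcripts of the processed transcript gene Lncppara.

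The other 3 lie on the plus strand within introns of protein-coding genes. Mirlet7g (ENSMUSG00000065440.1) is at chr9:106178840-106178927 in Wdr82, whose product is a subunit of a histone methyltransferase complex. Mirlet7e (ENSMUSG00000105758.1) is at chr17:17830352-17830444 in Spaca6, a gene known for sperm-egg fusion. Mir98 (ENSMUSG00000065536.2) is at chrX:151913214-151913321 in Huwe1, a ubiquitin ligase gene. Not all host transcripts span these genes: 5 of 6 do in Wdr82, 2 of 16 in Spaca6 and 2 of 23 in Huwe1.

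Together the 6 genes held 12.9% of the counted reads of replicate 1, with a Wilson 95% interval from 12.9% to 13.0%, and 12.7% of those of replicate 2, from 12.7% to 12.8%. These are 453437 of 3510897 and 503360 of 3949733 sense reads on miRNA genes. Levels below are per 1e6 of such reads (CPM), with SD over n = 2 libraries; intervals cover counting error only. Reads aligned to several places, which no gene received, outnumbered the reads of the 6 genes by 7.65 in replicate 1 and 9.37 in replicate 2 to 1. The shares therefore describe reads placed at 1 site and not the let-7 content of the muscle. Fewer cells carrying a miRNA and less of it per cell cannot be told apart in such bulk samples.

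Markers of the labelled tissue were present. Of 9 striated muscle miRNA genes, 8 reached 2 CPM in both libraries, and together they held 11.7% and 9.61% of the reads in replicates 1 and 2. Nearly all of these reads, 99.4% and 99.1%, were on Mir206. Mir126a of endothelium held 4.20% and 4.63%, and Mir143 and Mir145a of smooth muscle and stroma held 2.35% and 2.99%. Erythroid miRNAs held 0.207% and 0.187%, leukocyte miRNAs 0.0563% and 0.0468%, nerve and glia miRNAs 0.0243% and 0.0369%, the liver miRNA Mir122 0.0491% and 0.0176%, and epithelial miRNAs 0.00385% and 0.00127%. Of the nerve and glia list, Mir9-2 and the 3 Mir124a genes were at 0, and of 6 pluripotent cell genes 0 reached 2 CPM in both libraries. Reads aligned to several places reached no gene, and the part of this loss in the marker counts was not tested. A low or 0 count of a marker with copies elsewhere therefore does not show its miRNA to be absent. Nor does the share on Mir206 rank it among muscle miRNAs. The part of the listed cell types in the let-7 levels was not tested.

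Mirlet7i had 53634 CPM in replicate 1 and 53560 in replicate 2, and stood at place 5 of all miRNA genes in both libraries. Mirlet7g had 37906 and 37361 CPM, at place 7 in both. The libraries lie close together for each gene and the ranges do not overlap. Mirlet7i exceeded Mirlet7g by 1.41-fold in replicate 1 (exact 95% interval 1.41 to 1.42) and by 1.43-fold in replicate 2 (1.42 to 1.44). These genes, whose 5p strands differ at 2 positions and share the change G12U, held 70.9% and 71.3% of the reads of the 6 genes.

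Mirlet7d had 17799 CPM in replicate 1 and 16290 in replicate 2. Mirlet7b had 14762 and 15233 CPM. These are the closest neighbours in the order of levels: the lower Mirlet7d library stands just above the higher Mirlet7b library. Mirlet7g exceeded Mirlet7d by 2.13-fold in replicate 1 and 2.29-fold in replicate 2, whereas Mirlet7d exceeded Mirlet7b by 1.21-fold (1.19 to 1.22) and 1.07-fold (1.06 to 1.08).

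Mirlet7e had 3206 CPM in replicate 1 and 3076 in replicate 2. Mir98, named apart from the family but carrying its seed, had 1844 and 1920 CPM. A wide step precedes this pair. Mirlet7b exceeded Mirlet7e by 4.60-fold in replicate 1 and 4.95-fold in replicate 2, and Mirlet7e exceeded Mir98 by 1.74-fold and 1.60-fold. From Mirlet7i to Mir98 the span was 29.1-fold in replicate 1 (28.4 to 29.8) and 27.9-fold in replicate 2 (27.3 to 28.5). The order of the 6 genes was the same in both libraries, with no overlap between neighbours. With 2 values a gene, an exact two-sided permutation test cannot give a p below 0.333, so no test of the order is given.

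**Figure D1:**
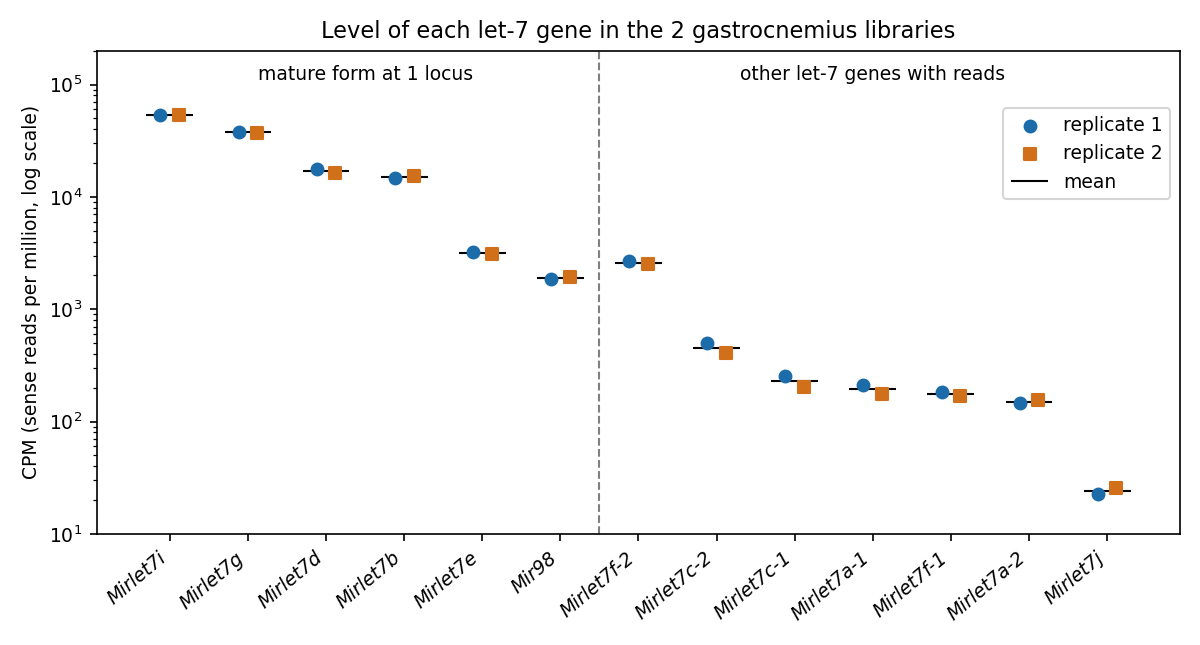
Level of each let-7 gene with reads, in CPM on a log axis, with 1 point per library and a line at the mean. The 6 genes with a mature form at 1 locus run from 53597 down to 1882 CPM on average, and of the other let-7 genes only Mirlet7f-2, at 2601 CPM, lies within that range.

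Among all miRNA genes some neighbours in level could not be separated from these genes. The gene nearest below Mirlet7b, Mir322 (13516 CPM in replicate 1 and 16329 in replicate 2), overlapped its range. The gene nearest above Mirlet7e, Mir214 (3900 and 2781 CPM), did so too, and so did Mir451a (1911 and 1712 CPM), nearest below Mir98. Mirlet7i was clear of Mir411 (60037 and 62145 CPM) above and Mir126a (42036 and 46314 CPM) below, and Mirlet7g was clear of Mir126a above and Mir23b (35013 and 34824 CPM) below. Mirlet7d was clear of Mir431 (20939 and 18776 CPM) above it. Mirlet7e was clear of Mir381 (2959 and 2841 CPM) below it, and Mir98 lay just under Mir17 (1934 and 1921 CPM). Likeness of pattern cannot be judged over 2 samples, so no gene is named for it.

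Against the 6 genes, the other 8 let-7 genes held few counted reads. The 6 genes had 97.0% of all let-7 reads in replicate 1 and 97.2% in replicate 2, and their sum exceeded that of the 8 by 32.5-fold and 34.7-fold. Mirlet7f-2 stood at 2601 ± 88.8 CPM (SD, n = 2), above Mir98. Mirlet7c-2 stood at 450.9 ± 64.8 CPM, Mirlet7c-1 at 228.6 ± 33.2, Mirlet7a-1 at 193.9 ± 24.7, Mirlet7f-1 at 175.5 ± 10.8, Mirlet7a-2 at 150.7 ± 5.66 and Mirlet7j at 24.2 ± 1.97 CPM. Mirlet7k had 0 reads, a count compatible with levels of up to 0.854 CPM (replicate 1) or 0.760 CPM (replicate 2) of reads that fit 1 place. Reads of let-7a, let-7c and let-7f can align to several places and are then dropped, and the part of this loss in the difference was not tested. Read loss and a lower level cannot be told apart here, so the difference describes counted reads and not the miRNAs themselves.

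Of the 6 genes, 4 have other miRNA genes within 10 kb on their strand. Mirlet7d lies 1714 bases from Mirlet7f-1 and 2064 from Mirlet7a-1, and exceeded Mirlet7f-1 by 97.2-fold in replicate 1 and 97.0-fold in replicate 2. Over Mirlet7a-1 it stood 84.2-fold and 92.3-fold higher. Mirlet7b, 621 bases from Mirlet7c-2, exceeded it by 29.7-fold and 37.6-fold. In these clusters the partners encode multi-locus strands, and the part of reads dropped there was not tested.

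The Mirlet7e cluster has partners of other families, Mir99b at 94 bases and Mir125a at 367 bases. Mir125a is a mammalian relative of lin-4, the miRNA that acts with let-7 in the timing of worm development. Mir99b had 4540 CPM in replicate 1 and 3900 in replicate 2, and Mir125a had 2614 and 2120 CPM. The levels of the 3 genes lie within a few-fold of each other, with Mirlet7e in the middle. The ratio of Mirlet7e to Mir99b was 0.706 in replicate 1 (exact 95% interval 0.689 to 0.724) and 0.789 in replicate 2 (0.770 to 0.808), and that to Mir125a was 1.23 (1.19 to 1.26) and 1.45 (1.41 to 1.49). These intervals do not overlap, so the proportions within the cluster differed between the libraries by more than counting error. Mir98 stood at 0.692 of Mirlet7f-2, 785 bases away, in replicate 1 (0.670 to 0.714) and at 0.756 in replicate 2 (0.734 to 0.779).

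**Figure D2:**
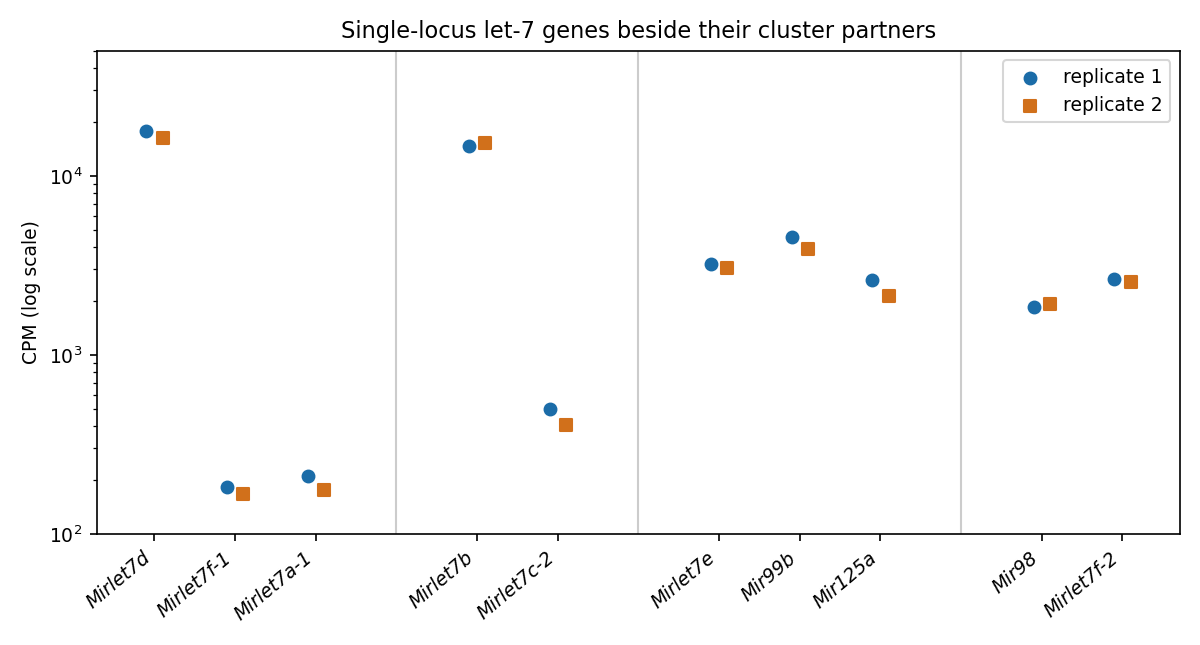
CPM on a log axis of the 4 clustered genes and of the miRNA genes within 10 kb on their strand, with 1 point per library and grey lines between clusters. Mirlet7d and Mirlet7b stand far above partners that encode let-7a, let-7c or let-7f, while Mirlet7e lies near Mir99b and Mir125a and Mir98 lies below Mirlet7f-2, which also encodes let-7f.

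Counting without strand removes 1 of the 6 genes. Mirlet7e had 11257 sense reads in replicate 1 and 12151 in replicate 2, and 0 in either library when strand was ignored. The annotated miRNA gene Gm25927 covers the whole of it on the opposite strand, at chr17:17830343-17830459, and had 0 sense reads. Its antisense column holds 11257 and 12151 reads, which equal the Mirlet7e counts. Reads on the strand opposite the 6 genes numbered 3 in each library, on Mirlet7b.

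Scaled to sense reads, the spread between the 2 libraries was small for these genes. The SD was 0.0978% of the mean for Mirlet7i, 1.02% for Mirlet7g, 2.22% for Mirlet7b, 2.87% for Mir98, 2.92% for Mirlet7e and 6.26% for Mirlet7d. The common biological coefficient of variation (edgeR) was 0.188, as a fraction and not in percent. It is a different measure from these SDs, fitted jointly over 320 genes with at least 10 counts in each library. All 6 lay within 1.1-fold between the libraries, a limit chosen after their values were seen, as did 121 of 332 detected genes (36.4%) and 39 of 79 genes of at least 1000 CPM (49.4%). Scaled to all reads of the file, 2 of the 6 lay within 1.1-fold. The median absolute log2 fold was 0.05 over the 6 genes, 0.21 over the detected genes and 0.14 over those of at least 1000 CPM. In sense CPM none of the 50 detected genes nearest in level to Mirlet7i had a smaller absolute log2 fold, whereas 23 of the 50 nearest to Mirlet7d did. The fold of Mirlet7i was 0.965 with DESeq2 size factors, 0.979 without strand and 1.11 with all reads, so its place rests on the scaling.

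A comparison of the libraries asked which genes differed by more than counting error, with a two-sided exact binomial test conditional on the totals of both libraries and Benjamini-Hochberg adjustment over 395 genes. It compares 2 libraries and not conditions, and no replicate stands behind it. At an adjusted p under 0.05, 5 of the 6 genes were called, as were 41.3% of all genes tested. At these depths the test calls differences of a few percent, and 0 of the 6 were called with a limit of 1.5-fold, against 9.37% of all genes, or with one of 2-fold, against 7.09%. By direction 3 were higher in replicate 1, where 24.3% of all genes were called so, and 2 were lower, beside 17.0%. This split turned on the scaling, with 1 higher and 4 lower under DESeq2 size factors, 1 higher and 3 lower without strand, and 6 higher and 0 lower with all reads of the file. In either direction, these scalings called 42.3%, 38.1% and 45.1% of all genes tested, in that order. The median log2 fold in sense CPM, replicate 1 over replicate 2, was 0.01 for the 6 genes and 0.03 for all genes tested. With all reads of the file, the median over all genes tested was 0.18.

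In sense CPM Mirlet7d lay furthest from 1, at 1.09-fold higher in replicate 1 (95% interval 1.081 to 1.105, exact binomial test, adjusted p = 7.48e-55). Mirlet7e was 1.04-fold (1.02 to 1.07, exact adjusted p = 0.00485) and Mirlet7g 1.01-fold (1.01 to 1.02, exact adjusted p = 0.000487) higher there. The folds of Mirlet7b and Mir98 were 0.969 (0.958 to 0.981, exact adjusted p = 7.52e-07) and 0.960 (0.929 to 0.993, exact adjusted p = 0.0405). Mirlet7i, with the deepest counts of the 6, was not called, at 1.00-fold (0.995 to 1.01, exact adjusted p = 0.773), nor was it with TMM. It was called without strand and with DESeq2 size factors, lower in replicate 1, and with all reads, higher there. With DESeq2 size factors Mir98 lay furthest from 1, at 0.925. Among 5 scalings only Mirlet7d kept both its direction and its call. Mirlet7e kept its direction wherever it had a value, at 1.00-fold with DESeq2 size factors. With DESeq2 size factors or without strand, Mirlet7i and Mirlet7g stood below 1, and scaled to all reads of the file Mirlet7b and Mir98 stood above 1.

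**Figure D3:**
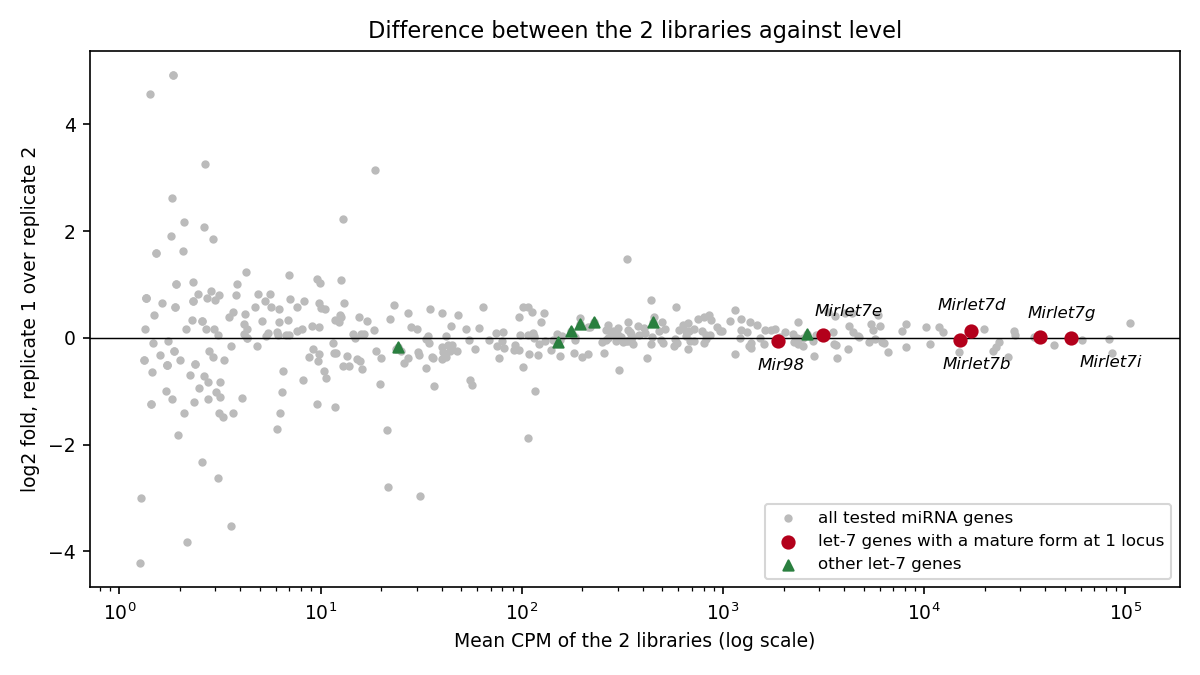
Log2 fold of replicate 1 over replicate 2 (y axis) against mean CPM on a log axis, with 1 point per tested gene. The 6 named genes lie between folds of 0.960 and 1.09, close to the zero line, and the spread of all genes widens toward low levels.

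Of the other let-7 genes, 7 could be tested between the libraries in sense CPM. Of these, 4 were called, all higher in replicate 1, beside 24.3% of all genes tested. Their calls under other scalings are not given here. Mirlet7c-1 and Mirlet7c-2 were both 1.23-fold higher in replicate 1, Mirlet7a-1 1.20-fold and Mirlet7f-2 1.05-fold, and the median log2 fold of the 7 was 0.13. Within their cluster, and scaled to sense reads, Mirlet7b and Mirlet7c-2 lay on opposite sides of 1, with intervals of 0.958 to 0.981 and 1.15 to 1.31. Scaled to all reads of the file, Mirlet7b stood above 1 as well. The reads left on Mirlet7c-2 are those that fit 1 place, and which strand they come from is not seen in counts per gene.

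**Figure D4:**
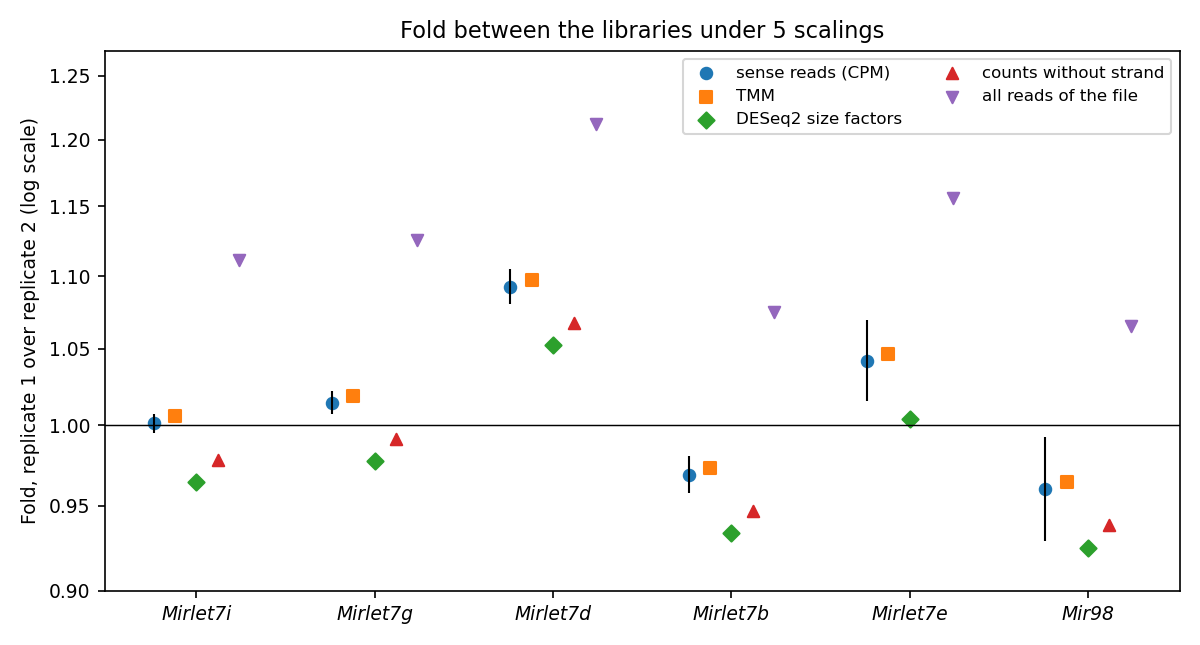
Fold of replicate 1 over replicate 2 on a log axis for the 6 genes under 5 scalings, with bars for the 95% interval of counting error on the sense CPM value. Mirlet7d stays above 1 under each, from 1.05 to 1.21, and Mirlet7e has no value without strand.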

How the data were processed

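The deposited files hold raw read counts per miRNA gene, without strand, sense and antisense, with build mm10 and annotation GENCODE M21 per the deposited file descriptions. Which aligner, counter, trimming or filters were used is not given in the sources used here. Columns were read as sense and antisense from their layout and totals. Summary rows, 56.9% and 61.2% of the 8152102 and 10176117 reads of replicates 1 and 2, stayed out of totals and tests. Sense counts were scaled to 1e6 (CPM), and 2 CPM in both libraries counted as detected. Of the let-7 names, Mirlet7j and Mirlet7k matched through RefSeq synonyms.

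The library test needed 10 counts in both libraries together (scipy 1.17.1, statsmodels 0.14.6) and was tested on data simulated with counting noise alone. It recovered 16 of 49 genes changed 1.1-fold, 31 of 45 changed 1.5-fold and 48 of 54 changed 4-fold, and called 2 of 201 unchanged genes. The simulation held no further spread, so it cannot vouch for calls in the real libraries. A chi-square of 90.8 per degree of freedom over 386 genes showed that the libraries differ beyond counting noise, as repeated preparations of the same RNA could too. P-values set the difference between these 2 libraries against counting error alone and measure no spread between animals. Alternatives used TMM (edgeR 4.0.16), DESeq2 1.42.0 size factors, unstranded counts and all reads. Named were the 6 genes, the other let-7 genes, cluster partners, overlapping opposite genes and the nearest genes in level; Mir1961 was added after the search for its seed. The loop of 1 gene is not reported here. Members, lists and tests were chosen with earlier results of these data known.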

Additional observations from a re-analysis of the deposited data

How the results depend on the processing

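No paired analysis was possible because all samples form 1 group. A mean of 2 libraries moves by less than its SD when either is left out, by construction, so this says nothing of stability. Leaving out 1 library gave 53560 to 53634 CPM for Mirlet7i and 12.7% to 12.9% for the share of the 6 genes. With all reads of the file as denominator, Mirlet7i stood at 21944, Mirlet7g at 15413, Mirlet7d at 6994, Mirlet7b at 6135, Mirlet7e at 1287 and Mir98 at 769.7 reads per 1e6, together 5.25%. Counted without strand they stood at 64136, 45030, 20386, 17951, 0 and 2252 CPM in that order, together 15.0%, so that Mirlet7e over Mir98 became 0; Mirlet7b over Mirlet7e and the library fold of Mirlet7e had no value. TMM and DESeq2 size factors moved no level beyond its SD. Both were set to keep the geometric mean of the 2 totals, so a mean level could hardly move and this too says nothing of stability.

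The number of the 6 genes called between the libraries was 4 to 6 over scalings and filters, and 0 with a limit of 1.5-fold or 2-fold. With no filter on low counts 23.3% of 691 genes were called, against 41.3%. Raising the filter to a summed count of 50 left 287 genes, of which 52.6% were called, and so were 5 of the 6. TMM called 40.8% of all genes tested, and the shares under the other scalings are given above. The fold of replicate 1 over replicate 2 for Mirlet7i was 0.979 without strand, 0.965 with DESeq2 size factors and 1.11 with all reads, each of them called, and that of Mirlet7g was 0.991 and 0.977 without strand and with DESeq2 size factors. With all reads Mirlet7b was at 1.08 and Mir98 at 1.07, a scaling that put the median log2 fold of all tested genes at 0.18, beside 0.03. Calls were lost for Mirlet7g without strand, for Mirlet7e with DESeq2 size factors (1.00-fold) and for Mir98 with TMM (0.964-fold) and with no filter on low counts. Windows of 18 bases gave shared shares of 2.94% for Mirlet7i and Mirlet7b and 2.82% for Mirlet7g, and 0 for the others. Over all annotated transcripts, a search added after seeing the data, 14 bases were needed for let-7d and for miR-98. The deep counts leave counting error small, so the number of libraries, 2, and the reads set aside limit precision here.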
